A study of Mus musculus with 8 samples.

Results

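The genes described here encode the ring of Polycomb repressive complex 1 (PRC1) and the subunits that sort it into its variants: Ring1, Rnf2, Bmi1, Pcgf1, Pcgf2, Pcgf3, Pcgf5, Pcgf6, Rybp and Kdm2b. They were chosen by name, not by a measured value. All 10 were found among the 18603 windows at gene starts measured for H3K27me3, the repressive mark on histone H3 lysine 27, and all 10 among the 22410 genes measured for RNA. The material was naive CD4+ T cells from lymph node of 129SV/B6 mice. The groups were WT, Ezh1 -/-, Ezh2 fl/fl with CD4-cre, and Ezh1 -/- with Ezh2 fl/fl and CD4-cre, written below as WT, Ezh1 KO, Ezh2 KO and, for both together, double KO. Each genotype had 1 ChIP-seq and 1 RNA-seq library, 8 in all. The Ezh1 allele is a germline null, so every tissue of those mice lacked it, whereas CD4-cre removes the floxed Ezh2 during T cell development in the thymus. Age, sex and the number of mice per library are not given in the sources used here. With 1 library per group there is no measure of biological spread, and no difference below carries a test or a p-value.

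PRC1 places ubiquitin on histone H2A. Its catalytic core is a RING protein, Ring1 (RING1A) or Rnf2 (RING1B), joined to a single Pcgf protein, and the Pcgf protein decides which complex is built. Bmi1 (also known as Pcgf4) and Pcgf2 (Mel18) build canonical PRC1, whose Cbx subunit binds the H3K27me3 that Ezh1 and Ezh2 deposit within PRC2. Pcgf1, Pcgf3, Pcgf5 and Pcgf6 build variant complexes with Rybp or its relative Yaf2, and Kdm2b brings the Pcgf1 complex to unmethylated CpG islands. In lymphocytes Bmi1 is known for holding down the Cdkn2a locus.

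The starts of these genes differ in CpG density, the sequence feature that Kdm2b reads. The stretches of 250 bases before the deposited gene start are shown for Rybp, Bmi1 and Pcgf2, which lie in windows with more H3K27me3 than most, and for Pcgf5, a CpG-rich start without it. They were read from the mouse genome of the build of the files (NCBIM37, also called mm9), 5′ to 3′ on the strand of the gene, and capitals mark each CpG. No base of these 4 stretches lies in an annotated exon, so they are sequence upstream of the transcript, although that of Pcgf5 lies within the gene as annotated from an earlier start.
Rybp (chr6:100237436-100237685, minus strand): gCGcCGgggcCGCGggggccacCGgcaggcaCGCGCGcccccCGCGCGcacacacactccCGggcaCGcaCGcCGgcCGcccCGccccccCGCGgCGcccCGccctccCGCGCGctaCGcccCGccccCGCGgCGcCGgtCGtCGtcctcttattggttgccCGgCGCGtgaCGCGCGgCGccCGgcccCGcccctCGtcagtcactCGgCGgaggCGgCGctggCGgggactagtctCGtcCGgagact
Bmi1 (chr2:18598395-18598644, plus strand): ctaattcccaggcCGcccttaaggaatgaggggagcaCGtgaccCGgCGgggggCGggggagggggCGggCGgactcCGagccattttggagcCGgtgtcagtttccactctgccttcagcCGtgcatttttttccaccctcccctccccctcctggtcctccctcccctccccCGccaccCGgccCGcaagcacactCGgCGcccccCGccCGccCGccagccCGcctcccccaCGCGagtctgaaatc
Pcgf2 (chr11:97561812-97562061, minus strand): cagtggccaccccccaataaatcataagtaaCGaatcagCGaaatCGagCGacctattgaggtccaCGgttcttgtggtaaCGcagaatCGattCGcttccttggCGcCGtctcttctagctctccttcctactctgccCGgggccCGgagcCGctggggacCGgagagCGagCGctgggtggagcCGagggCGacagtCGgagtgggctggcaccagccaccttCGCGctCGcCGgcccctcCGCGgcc
Pcgf5 (chr19:36483988-36484237, plus strand): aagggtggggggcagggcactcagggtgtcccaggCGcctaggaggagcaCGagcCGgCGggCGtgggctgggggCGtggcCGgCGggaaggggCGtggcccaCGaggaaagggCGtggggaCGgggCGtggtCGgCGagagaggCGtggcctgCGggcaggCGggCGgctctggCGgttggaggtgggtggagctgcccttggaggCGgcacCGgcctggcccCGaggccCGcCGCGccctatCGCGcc
Rybp held 49 CpG in this stretch, more than 99.8% of 17764 promoters read the same way, whose median was 11. Pcgf5 held 28, Pcgf2 held 25 and Bmi1 held 21. Among the members not printed, Rnf2 held 32, Ring1 31, Pcgf6 23, Pcgf1 18 and Pcgf3 16. Kdm2b held 9, but its deposited start lies 25257 bp downstream of the earliest annotated start of the gene, and all 250 bases there fall in annotated exons, so its stretch and its window may not describe the start in use. The deposited start of Pcgf5 likewise lies 30681 bp from the earliest annotated one. The E-box CACGTG, a palindrome that Myc proteins can bind and so the same on both strands, was in the Bmi1 stretch (the letters caCGtg above) and in that of no other member, and 7.37% of all promoters held it. The letters GCGGGAA, a core E2F motif searched on both strands, were in the stretches of Rnf2 and Pcgf5 and in 5.42% of all promoters. The motifs were found in different members, so no match overlaps another, and a match is a description of the sequence only.

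H3K27me3 is given as the coverage per M (mega) reads summed over a window of 6 kb around the gene start. The median over windows of genes in the top tertile of WT RNA serves as the background, and it was 10.1 in WT, 9.82 in Ezh1 KO, 11.1 in Ezh2 KO and 10.4 in double KO. A window was called marked at 4 times the WT background or more, which 12% of all windows reached in WT. None of the 10 members reached it in WT. Pcgf2 was above that line, 40.6, in Ezh1 KO (48.8) and in double KO (43.3). In those 2 libraries it was higher than 87.7% and 88.1% of all windows. At 2 times the background or more in WT, the members were 5 of 10 and all windows 31.1%. The members above that line were Pcgf2, Pcgf1, Bmi1, Rybp and Pcgf3, and those below were Pcgf6, Rnf2, Pcgf5, Kdm2b and Ring1.

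**Figure D1:**
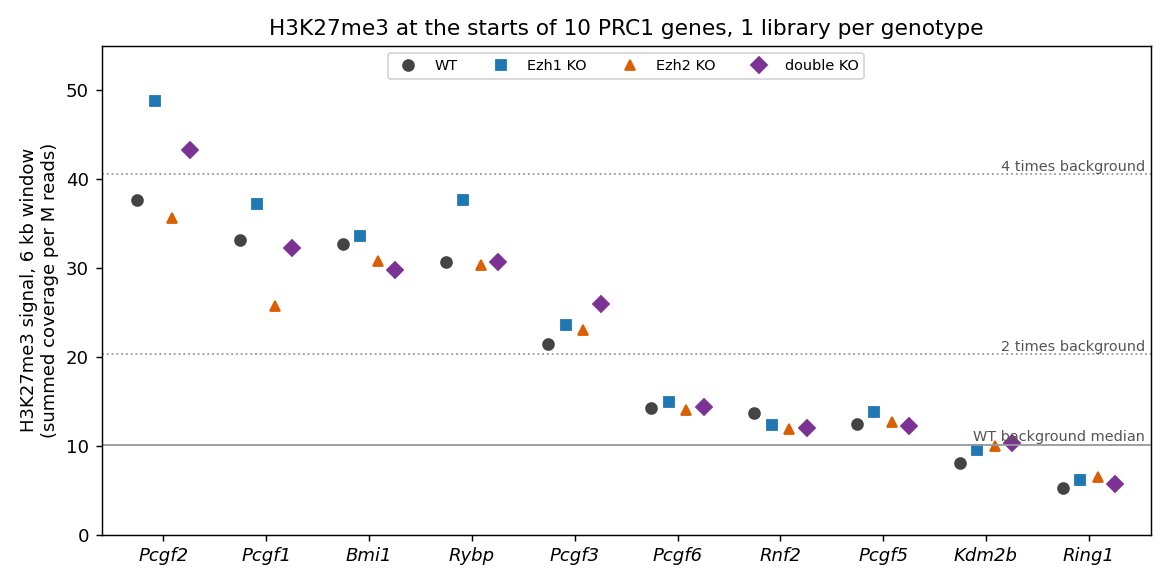
H3K27me3 signal (y axis, coverage per M reads summed over 6 kb) at the 10 members (x axis, by WT value), with 1 point per library and genotype. Lines give the WT background median and 2 and 4 times it; Pcgf2, Pcgf1, Bmi1, Rybp and Pcgf3 lie above 2 times background in all 4 libraries and the other members lie below it in all 4.

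Among the catalytic subunits, Ring1 had the lowest signal of the members: 5.28 in WT, 6.17 in Ezh1 KO, 6.48 in Ezh2 KO and 5.71 in double KO. Its WT value was 0.520 times background and higher than 5.85% of all windows. That share counts windows at 0 as lower, and 18069 of the 18603 windows were above 0 in WT or Ezh1 KO. Rnf2, the RING protein that mouse embryos cannot develop without, had 13.7, 12.4, 11.9 and 12.0 in the same order of genotypes, or 1.35 times background in WT. Both ligase genes therefore stood below the line of 2 times background in every library, with Ring1 the lower in each.

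The canonical pair stood at the other end. Pcgf2 had 37.6 in WT, 48.8 in Ezh1 KO, 35.7 in Ezh2 KO and 43.3 in double KO, the highest signal of the members in all 4 libraries. Measured against each library's own background this was 3.71, 4.97, 3.22 and 4.16 times. Bmi1 had 32.7, 33.6, 30.8 and 29.8, 3.23 times background in WT and a narrow range over the genotypes. Pcgf2 was higher in Ezh1 KO and double KO than in WT and Ezh2 KO, whereas Bmi1 stayed between 29.8 and 33.6. The order of the libraries at Pcgf2 is also that of the windows marked in WT as a whole. Their median was 51.5 in WT, 64.2 in Ezh1 KO, 47.5 in Ezh2 KO and 56.9 in double KO. Against each library's own background this was 5.08, 6.54, 4.29 and 5.47 times, so the pattern is not particular to Pcgf2.

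Of the variant Pcgf genes, Pcgf1 had 33.1, 37.2, 25.8 and 32.2, with its lowest value in Ezh2 KO. Pcgf3 had 21.4, 23.6, 23.0 and 26.0, just above 2 times background in WT. Its paralog Pcgf5, which builds a closely related complex with Auts2, had 12.4, 13.8, 12.7 and 12.3. Pcgf6, the subunit of the complex with L3mbtl2, Mga and E2f6, had 14.3, 14.9, 14.0 and 14.4. Pcgf5 and Pcgf6 were thus near background in every library, below Pcgf1 and Pcgf3.

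Rybp, the shared subunit of the variant complexes, had 30.7, 37.7, 30.4 and 30.7, so that the Ezh1 KO library stood apart from 3 near-equal ones. Kdm2b had 8.02, 9.55, 10.0 and 10.3, below or near the background. CpG content did not order the members by signal. Over the whole 6 kb window Rybp, Pcgf2 and Bmi1 held the most CpG, 297, 295 and 286, but Ring1 held 248 with the lowest signal of all. Pcgf3, at 2.11 times background in WT, held 97, below the median window with 119.

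The shape of the signal also differed between members. The ratio of the highest 25 bp bin to the mean bin in WT was 3.94 at Rybp, 3.61 at Bmi1, 3.37 at Pcgf2 and 3.40 at Pcgf1. Among windows with a total within 1.2-fold of theirs, these ratios exceeded 95.6%, 93.6%, 93.3% and 90.7% of windows. These 4 windows were thus more peaked than most windows of like total. Ring1, with the lowest signal, had the highest ratio of the members in WT, 5.23, above 89.4% of like windows, in a window worth 69.6 reads. In Ezh1 KO, Ezh2 KO and double KO Ring1 had 3.80, 4.15 and 4.29, where Bmi1 had 4.11, 4.78 and 3.16. Ring1 was thus not the highest in Ezh1 KO and Ezh2 KO. Pcgf6 stood at 80.0%, Pcgf3 at 78.3%, Rnf2 at 65.0%, Pcgf5 at 47.1% and Kdm2b at 34.8% on the same scale. In WT a peaked shape was thus not limited to members with more signal, though for Ring1 it rests on few reads.

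Neighbouring genes share part of this signal. Pcgf1 lies between Tlx2 and Lbx2, homeobox genes without RNA here beyond 1 read in height, whose starts are 8.165 and 7.975 kb away. Tlx2 had 70.5 in WT, 97.6 in Ezh1 KO, 74.8 in Ezh2 KO and 88.3 in double KO. Lbx2 had 70.6, 94.7, 73.7 and 74.5. In all 4 libraries both flanking windows were above Pcgf1, and none of the 3 windows overlap. The start of Pcgf2 lies 2.902 kb from that of Psmb3, a proteasome gene with RNA of 4.63 in WT, and their windows overlap over 3098 bp. Psmb3 had 26.98, 30.9, 22.9 and 26.7, and the highest bin had the identical value at both genes in 4 of 4 libraries (0.529, 0.591, 0.433 and 0.564). This places the highest bin of the Pcgf2 window in the stretch it shares with Psmb3, so the signal there cannot be assigned to 1 of the 2 genes. Bmi1 and Commd3 overlap over 1405 bp, and Commd3 had 30.0, 26.6, 22.5 and 24.3. Pcgf3 lies 12.341 kb from Mfsd7a, whose window was marked in WT, with 41.7, 52.8, 39.2 and 51.4. Ring1 lies 3.402 kb from H2-Ke6, whose window was as low as its own, with 5.19, 4.67, 7.64 and 7.01. Rnf2, Pcgf5, Pcgf6, Rybp and Kdm2b had no other measured window within 8 kb of theirs.

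**Figure D2:**
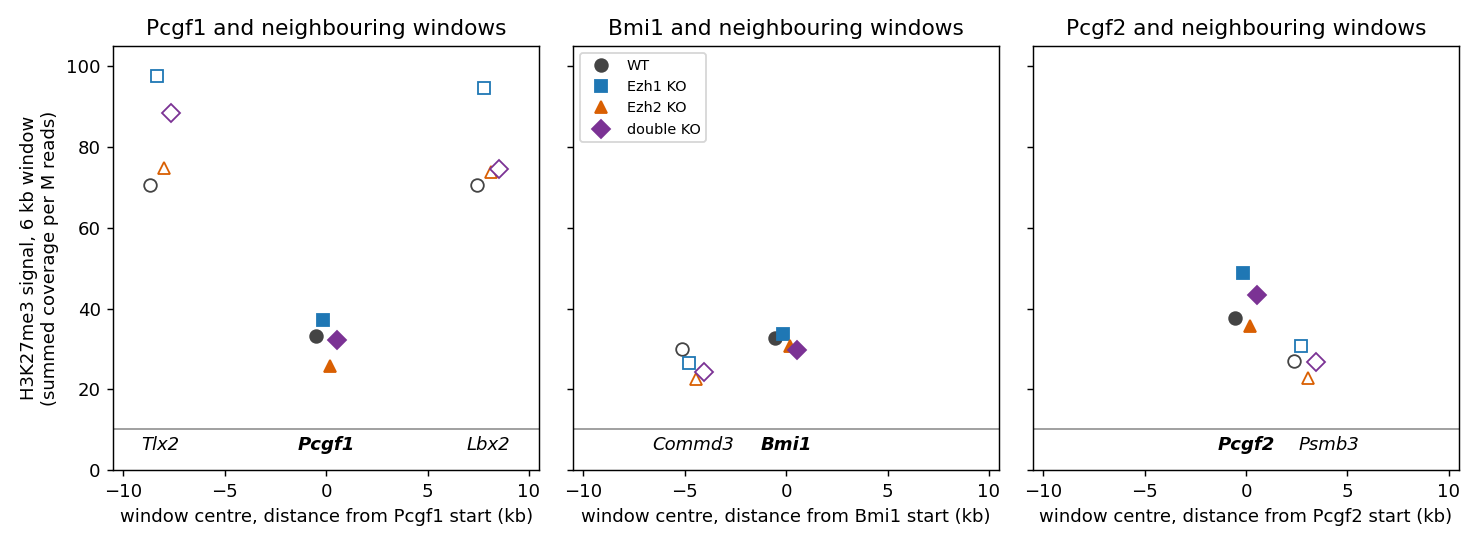
H3K27me3 signal (y axis, coverage per M reads summed over 6 kb) at Pcgf1, Bmi1 and Pcgf2 (filled) and at neighbouring windows (open), by the distance of the window centre from the start of the member in kb on the genome's forward axis, with points of a genotype offset sideways for clarity. The line is the WT background median; Pcgf1 lies between 2 windows with more than its own signal in each library, and Bmi1 and Pcgf2 lie beside windows with less.

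RNA is given as the highest coverage per M reads in each exon, averaged over the exons of a gene. It is a height of coverage per exon and not an amount per length. Orders between genes below are therefore orders of this measure only. In bulk RNA, fewer cells of a type and less RNA per cell cannot be told apart. Rnf2 had the most RNA in each library: 3.85 in WT, 3.62 in Ezh1 KO, 4.17 in Ezh2 KO and 3.73 in double KO. Bmi1 followed with 1.63, 1.49, 1.91 and 2.10, and then Pcgf5 with 1.41, 1.42, 1.80 and 1.68. Bmi1 was above Pcgf5 in every library, by the mean and by the median over exons. The ranges of the 2 genes over the genotypes overlap, and 1 library per genotype gives no measure of spread for their order.

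The next 6 genes were close together. Ring1 had 0.743, 0.707, 0.601 and 0.789, and Rybp had 0.669, 0.663, 0.693 and 0.635. Kdm2b had 0.588, 0.635, 0.618 and 0.703, and Pcgf6 had 0.576, 0.538, 0.540 and 0.524. Pcgf1 had 0.535, 0.546, 0.508 and 0.475, and Pcgf3 had 0.511, 0.446, 0.518 and 0.588. Neighbours in this order overlap over the 4 libraries, except that every Kdm2b value was above every Pcgf6 value. That order depends on the column used: by the median over exons Kdm2b had 0.357, 0.357, 0.423 and 0.487 and Pcgf6 0.589, 0.535, 0.560 and 0.533, so that Kdm2b was the lower in all 4 libraries. Rnf2, the RING1B gene, thus had more RNA than Ring1 in all 4 libraries, and Pcgf5 more than its paralog Pcgf3.

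Pcgf2 was at the limit of detection. Its values were 0.0105, 0.0269, 0.0322 and 0.0251, which equal 0.380, 1.89, 1.31 and 2.36 reads in height, all under a floor of 3 reads. No ratio between genotypes is given for it. Of the 2 Pcgf genes that build canonical PRC1, Bmi1 had nearly all the RNA in each of the 4 genotypes.

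**Figure D3:**
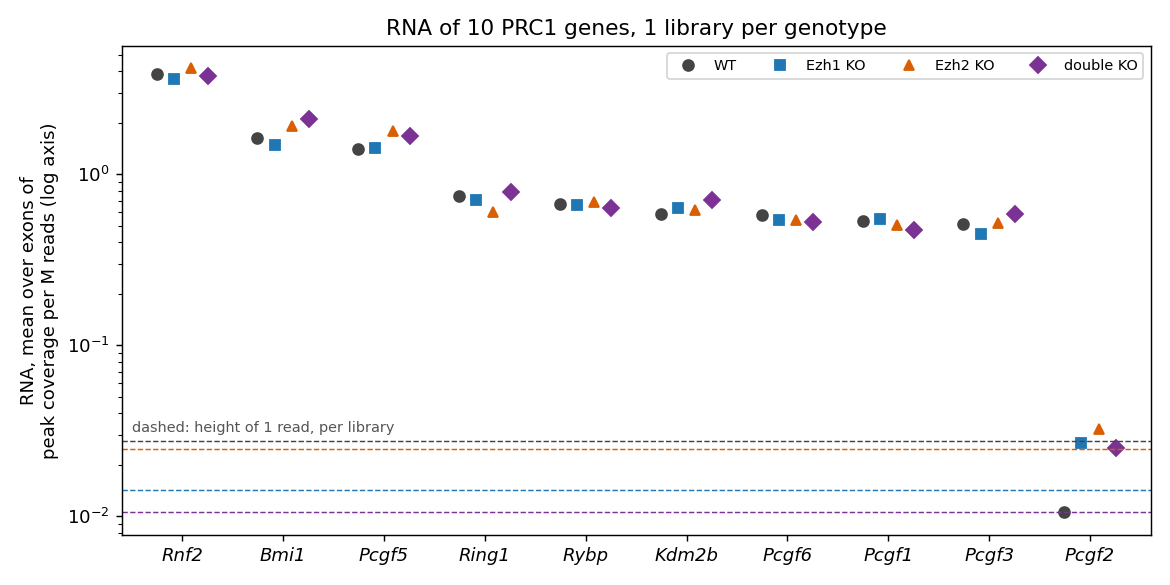
RNA (y axis, log scale, exon peak coverage per M reads averaged by gene) of the 10 members (x axis, by WT value), with 1 point per library and genotype. Dashed lines give the height of 1 read in each library; Rnf2, Bmi1 and Pcgf5 are above 1 in all 4 libraries, 6 genes lie between 0.446 and 0.789, and Pcgf2 lies near the height of 1 read.

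Set against its RNA, the signal at several members was unusual among genes of like expression. Of 2372 genes with WT RNA within 1.5-fold of that of Bmi1, 1.73% had a window as high as its 32.7 or higher, and their median was 10.2. The same share was 3.53% of 2323 genes for Rybp and 3.58% of 2124 genes for Pcgf1. For Pcgf3 it was 11.03%, for Rnf2 18.5%, for Pcgf6 28.6% and for Pcgf5 30.1%. Pcgf2, with almost no RNA, had a share of 29.8% of 1983 genes, whose median was 23.4. Ring1 and Kdm2b were at the opposite side, with 95.6% and 82.1% of like genes at or above them. Bmi1, Rybp and Pcgf1 were thus transcribed genes with windows that few transcribed genes match, while the window of Pcgf2 was like that of many genes without RNA. In bulk libraries, mark and RNA in the same cells and in different cells cannot be told apart.

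**Figure D4:**
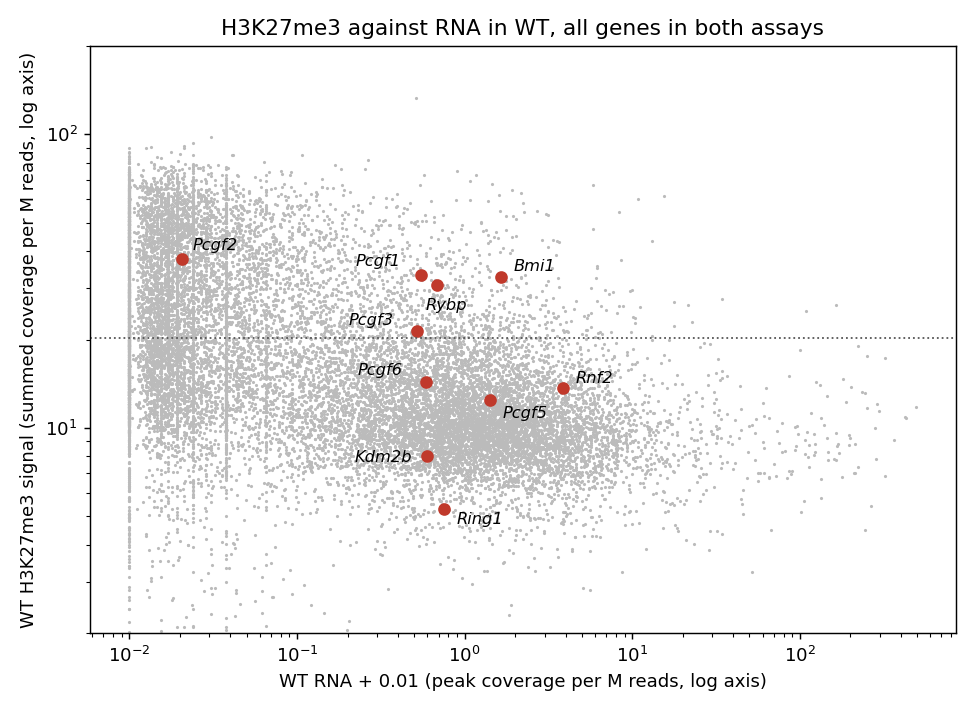
WT H3K27me3 signal (y axis, log scale, coverage per M reads summed over 6 kb) against WT RNA (x axis, log scale, peak coverage per M reads with 0.01 added) for genes in both assays with a window above 0. Windows below 2 lie outside the y axis and are not seen. Grey points are single genes and red points the members. The dotted line is 2 times the background; Bmi1, Pcgf1 and Rybp lie above it at RNA levels where most genes lie below, and Pcgf2 lies among genes with almost no RNA.

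Before the genotypes are compared, the labels were checked. Ezh1 RNA was 1.05 in WT, 0.196 in Ezh1 KO, 1.12 in Ezh2 KO and 0.194 in double KO. Ezh2 RNA was 0.925, 0.913, 1.08 and 1.17, and by the median over exons 0.753, 0.685, 0.737 and 1.04. Neither column was below WT in both CD4-cre libraries. A mean or median over exons can miss the loss of some exons. The Ezh2 deletion is thus not shown by these values. The window at Cd4, the gene whose regulatory elements drive the Cre, had H3K27me3 of 19.9, 24.1, 193 and 212, so both CD4-cre genotypes stood apart from both others, and the cause was not tested. The mark itself was present in all 4 libraries: 6 Polycomb target genes (Hox genes and Cdkn2a among them) had median signals of 69.6, 90.3, 70.0 and 86.3. Summed RNA of 11 CD4 T cell markers was 207, 182, 174 and 186. Summed RNA of 8 B cell markers was 4.98, 6.92, 9.61 and 16.7. Markers of CD8 T and NK cells summed to 4.25, 4.28, 8.86 and 7.32, and those of cycling cells to 3.22, 3.21, 6.21 and 4.78. Markers of myeloid cells summed to 1.91, 2.35, 2.97 and 3.32, and those of erythroid cells to 0.512, 0.157, 0.0512 and 0.0472. Not every marker followed its sum. From WT to double KO the myeloid markers Lyz2 and Cst3 rose, from 0.275 to 1.19 and from 1.23 to 1.77. Fcgr3 fell from 0.270 to 0.139. Itgam went from 0.0586 to 0.0493, but its WT value is under the floor of 3 reads. Among CD8 T and NK cell markers Gzma rose from 0.226 to 1.13 and Prf1 fell from 1.43 to 1.06. The part of these other cells in the differences below was not tested. No measured marker was at 0 in all 4 RNA libraries.

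For each mutant against WT, log2 ratios of H3K27me3 were taken with 1 added to each value. No member differed by 2-fold in Ezh1 KO, where 0.0334% of all windows did, in Ezh2 KO, where 0.0334% did, or in double KO, where 0.172% did. None reached 1.5-fold either, against 2.19%, 1.4% and 2.62% of windows. The intervals below are 95% counting intervals on reads, without the added 1, and hold no biological error. The 3 comparisons share the WT library, so they are not independent of each other.

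In Ezh1 KO, 9 of the 10 members were above WT, with a median log2 ratio of 0.15 against 0.09 for all windows, of which 64.2% were above 0. Pcgf2 had the largest, 0.37 (interval 0.21 to 0.54), and Rybp had 0.29 (0.11 to 0.49). These were the 2 members whose interval left out 0, against 33.8% of all windows. Rnf2 was the only member with a negative ratio, -0.13. This direction depends on how the libraries are scaled. With the marked windows set equal between libraries, which shifts Ezh1 KO against WT by 0.32, 1 of the 10 members was above 0, and Pcgf2 had 0.06.

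In Ezh2 KO, 4 members were above WT and 6 below, with a median of -0.02 against -0.01 for all windows. Pcgf1 had the ratio farthest from 0, -0.35 (interval -0.57 to -0.15), and it was the single member whose interval left out 0, against 24.2% of windows. Its ratio stayed below 0 under every other scaling tried, between -0.47 and -0.24. With marked windows set equal, 8 of the 10 members were above WT. The neighbours of Pcgf1, Tlx2 and Lbx2, had slightly higher signals in Ezh2 KO than in WT. Kdm2b had 0.29 (-0.06 to 0.70), at a signal near background.

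In double KO, 5 members were above and 5 below WT, with a median of 0.00 against 0.05 for all windows. Pcgf3 had 0.27 (interval 0.05 to 0.50) and Pcgf2 had 0.20 (0.03 to 0.37), the 2 members whose interval left out 0, against 27.8% of windows. Kdm2b had the largest ratio, 0.33 (-0.00 to 0.74). Rnf2 was lowest at -0.18. With marked windows set equal, 3 members were above WT. In the double KO library the windows of all 10 members thus lay within 1.5-fold of WT, including the 5 windows that stood above 2 times background.

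Against the single mutants, the double KO differed by 2-fold at no member. Against Ezh1 KO, 0.223% of windows passed 2-fold and 8 of 10 members were below 0, with a median of -0.13 against -0.05 for all windows. Rybp had -0.29 (interval -0.48 to -0.11), Pcgf1 -0.20 and Pcgf2 -0.17, the 3 members whose interval left out 0, against 32.1% of windows. Against Ezh2 KO, 0.0334% of windows passed 2-fold and 7 members were above 0, with a median of 0.03 against 0.05. Pcgf1 had 0.31 (0.11 to 0.53) and Pcgf2 had 0.27 (0.10 to 0.46), the 2 members whose interval left out 0, against 27.5% of windows. None reached 1.5-fold in these 2 comparisons either, against 2.55% and 0.823% of windows. With marked windows set equal, 7 members were above Ezh1 KO and 2 above Ezh2 KO. Pcgf1 was lowest in the Ezh2 KO library of the 4.

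**Figure D5:**
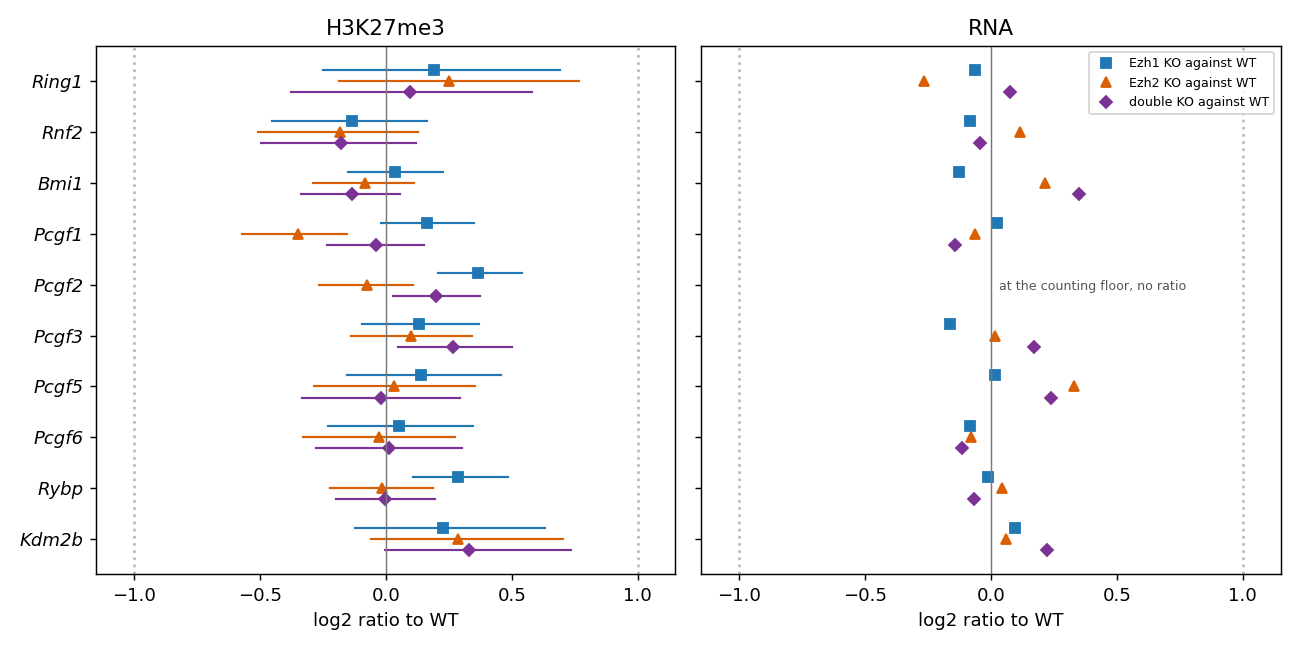
Log2 ratio of each mutant library to the WT library (x axis) for H3K27me3 (left) and RNA (right) of the 10 members (y axis). Bars on the left are 95% counting intervals, the right has none, dotted lines mark 2-fold, and Pcgf2 has no RNA ratio because it is under the counting floor; no point reaches 2-fold.

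For RNA, ratios were taken with 0.1 added, and a gene entered the count of calls when it reached 1 in the higher library. Rnf2, Bmi1 and Pcgf5 did so, 3 of 10 members, each in every library. None differed by 2-fold from WT, against 0.442% of genes tested in Ezh1 KO, 1.5% in Ezh2 KO and 1.24% in double KO, or by 1.5-fold, against 3.33%, 6.19% and 4.99%. The double KO also showed no 2-fold difference from Ezh1 KO, against 0.883% of genes, or from Ezh2 KO, against 0.786%, and no 1.5-fold one, against 3.18% and 3.09%. Peaks of coverage carry no counting interval.

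Over the 9 members above the floor of 3 reads in every library, the median log2 ratio to WT was -0.06 in Ezh1 KO, 0.04 in Ezh2 KO and 0.08 in double KO. Over the 10557 genes above that floor it was -0.11, -0.04 and -0.08. Bmi1 had the largest ratio in double KO, 0.35, with 2.10 against 1.63 in WT, higher than 94.2% of genes tested. Against Ezh1 KO it had 0.48. Bmi1 was thus lowest in Ezh1 KO and highest in double KO. The marker sums of B cells and of myeloid cells given above were also highest in double KO, though single myeloid markers went both ways. The part of these cells in this was not tested. The H3K27me3 window of Bmi1 was at its lowest value, 29.8, in double KO, with a ratio to WT of -0.13 whose counting interval includes 0.

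Pcgf5 had 0.33 in Ezh2 KO and 0.24 in double KO, and 0.02 in Ezh1 KO. Kdm2b had 0.22 in double KO. Ring1 had -0.26 in Ezh2 KO and 0.08 in double KO, and the double KO against Ezh2 KO gave 0.34. That value moved to 0.60, past 1.5-fold, when the median over exons was used in place of the mean. By the median Ring1 also reached the minimum of 1, with 1.04 in double KO. The lack of 1.5-fold differences given above thus holds for the mean over exons only. Pcgf1 was lowest in double KO at -0.14, Pcgf3 lowest in Ezh1 KO at -0.16, and Rnf2 lay between -0.08 and 0.12 against WT. Rybp and Pcgf6 lay between -0.12, at Pcgf6 in double KO, and 0.04, at Rybp in Ezh2 KO. The genes whose RNA pattern over the 4 libraries was nearest to that of Bmi1, by root mean square distance of log2 ratios among 4578 genes at 1 or more in all libraries, were Zfand6 (0.035), Pdia3 (0.043) and Cux1 (0.050).

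The partners of these subunits were counted from lists. For comparison, 31.1% of all windows were at 2 times background or more in WT, 26.3% of the genes in both assays had WT RNA of 1 or more, and the shares of all windows and genes past 2-fold were those given above, at most 0.223% and 1.5%. Of 10 canonical PRC1 partners (Cbx, Phc and Scm proteins), 5 windows were at 2 times background or more in WT and 2 genes had RNA of 1 or more. Of those that reached the minimum of 1, none differed by 2-fold in either assay in any of the comparisons. For RNA 2 of the 10 genes reached it, and the others had no call. For H3K27me3 9 of the 10 windows reached it, as that of Scml2 was at 0 in all 4 libraries. In double KO against WT the largest log2 ratios were at Cbx6 (0.43, 12.4 to 17.1) and Phc1 (-0.40, 20.5 to 15.3) for H3K27me3. For RNA, Phc2, a polyhomeotic protein, had 0.32 (0.425 to 0.553).

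Of 21 partners of variant PRC1, 2 windows were at 2 times background and 14 genes had RNA of 1 or more, and none of those tested differed by 2-fold. All 21 windows were tested, but for RNA 13 to 15 of the 21 genes reached the minimum, depending on the comparison. Bcor, which joins Pcgf1 to Kdm2b, had 4.17 in WT and 6.46 in double KO for H3K27me3, a ratio of 0.53 below the background level, and Csnk2a1, a casein kinase subunit, had 0.40. Skp1a, the partner of the F-box of Kdm2b, had RNA of 15.8 in WT and 12.3 in double KO (-0.37). Yaf2, the relative of Rybp, had RNA of 1.10 in WT, 0.589 in Ezh1 KO, 0.760 in Ezh2 KO and 0.898 in double KO. Its ratio was -0.80 in Ezh1 KO and -0.27 in double KO, while Rybp stayed between 0.635 and 0.693. Yaf2 was below WT in all 3 mutants without reaching 2-fold.

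Of 9 genes for enzymes that remove ubiquitin from H2A and their partners, 1 window was at 2 times background and 5 had RNA of 1 or more. The largest ratios in double KO were 0.39 at Foxk2 and 0.33 at Asxl3 for H3K27me3, and -0.22 at Foxk1 and -0.17 at Usp21 for RNA. Of 9 PRC2 genes, no window was at 2 times background and 8 had RNA of 1 or more. The window of Rbbp7 was at 0 in all 4 libraries and was not tested. Suz12, the scaffold of PRC2, had -0.41 and Aebp2, an accessory subunit, 0.28 for H3K27me3, both near background, and Eed, which reads H3K27me3 (-0.33), and Rbbp4, a histone chaperone (-0.27), had the largest RNA ratios. No gene of these lists that reached the minimum differed by 2-fold. For RNA 4 or 5 of the 9 genes for removal of ubiquitin and 8 of the 9 PRC2 genes reached it, and the others had no call. The 6 target genes were all marked in WT, and the largest ratios in double KO were 0.42 at Hoxb9 (57.5 to 77.1) and 0.39 at Hoxa9 (78.9 to 104), with RNA near 0 throughout.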

How the data were processed

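H3K27me3 ChIP-seq and RNA-seq of 4 genotypes were used, 1 library each. Reads were aligned to mm9 with Bowtie 0.12.7, per the submitters' processing notes, which also name bcl2fastq, Cufflinks and Cuffdiff with no role. The values deposited by the authors are coverage signals, namely an area and a highest bin around each gene start and, for RNA, a mean and a median over exons of peak coverage, per the file headers; the RNA files also give another number, that of exons. From the values they are per M reads, with 25 bp bins and reads extended to 151 bp. Input subtraction is not stated, and neither input nor spike-in was used, so ratios are relative to each library's total. The height of 1 read gives a depth of 78.2 to 88.2 M reads (ChIP) and 36.1 to 94.1 M reads (RNA); a median window holds 177 to 204 read equivalents. The height of 1 RNA read therefore differs between libraries.

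Log2 ratios used a pseudocount of 1 (ChIP) or 0.1 (RNA), which understates changes at low values, a minimum of 1 in the higher library, and 2-fold calls over the whole table. The 95% intervals (exact Clopper-Pearson) cover counting error only. PCR copies of a molecule were not told apart by identifiers, so the intervals may be too narrow even for that error. They were taken on read equivalents without the pseudocount that the ratios beside them carry. Calls were tested on simulated data (Python 3.11.15, SciPy 1.17.1) that held changes well past 2-fold and counting noise only. Changes near the 2-fold line or at low values were not simulated, and neither was biological spread. Promoters were read from NCBIM37, and no protein sequences were used. Beside the members and Ezh1 and Ezh2, the rule for named genes took from each list any gene past 2-fold and the 2 largest ratios of double KO to WT, and the 3 genes nearest to the member with the widest RNA range; neighbours and the Cd4 window were named after their values were seen. Some genes that the rule would name are not reported here. Members and lists were chosen with earlier results of these data known. Alternatives changed the pseudocount, minimum, scaling, deposited column and background.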

Additional observations from a re-analysis of the deposited data

How the results depend on the processing

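No paired analysis was possible because each genotype has 1 library per assay, and for the same reason no library could be left out. The count of members past 2-fold stayed at 0 in all 5 comparisons of both assays under every alternative run. For RNA this covers 3 or 4 tested members in most settings, 9 at a minimum of 0.5 and 10 with no minimum. Pcgf2 entered only with no minimum, where the pseudocount of 0.1 is larger than its values and keeps its ratios small. The count of members marked in WT was 0 as reported, with the highest bin and with all windows as background, and it was 5 at 2 times background. Of 50 H3K27me3 ratios of members, 12 moved beyond counting error with marked windows set equal, where 24 changed sign, and 12 with the highest bin, where 10 changed sign; none did with the other scalings, pseudocounts or minimums, although 9 changed sign with a median of ratios and 5 with background scaling. The highest bin was used with a pseudocount of 0.01 and a minimum of 0.05, chosen after seeing the data, because at the planned minimum of 1 no member can be tested. Its largest member ratio was -0.67, at Rnf2 in Ezh2 KO. Of 50 RNA ratios, 7 moved by over 0.2 with the median over exons, 4 with no pseudocount and 1 with a pseudocount of 1. Over all windows, the 2-fold calls that give the background shares ranged over settings from 1 to 56 for Ezh1 KO against WT (6 as reported), 1 to 78 for Ezh2 KO (6) and 4 to 95 for double KO (31), and from 4 to 130 (40) and 1 to 45 (6) for double KO against Ezh1 KO and Ezh2 KO. For RNA they ranged from 11 to 69 (23), 36 to 195 (80), 26 to 156 (66), 9 to 115 (45) and 10 to 136 (41) in the same order. Depth limits the RNA of Pcgf2, and single libraries limit every comparison.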
